A study of Mus musculus with 6 samples.

Results

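The *Prrx1*-lineage cells were compared for 48 genes of DNA replication: those that license origins, build and run the replication fork, and supply deoxynucleotides. The members were chosen by symbol, and all 48 were among the 17854 genes of the table and among the 14289 genes that passed edgeR's filter on low counts. The libraries were 3 of Tomato+ cells taken from the repaired cartilage of mice with knee osteoarthritis (KOA) after injection of MSCs, here called MSC-derived, and 3 of endogenous articular Tomato+ cells, here called endogenous. The injected MSCs were sorted *Prrx1*-lineage cells of inguinal white adipose tissue from *Prrx1-Cre; R26tdTomato* mice, and the endogenous cells came from age- and sex-matched *Prrx1-Cre; R26tdTomato* mice. All mice were C57BL/6 males, 3 mice were used for each group, and osteoarthritis had been induced by transection of the anterior cruciate ligament in the hosts of the injected cells only. Cre from *Prrx1* regulatory sequences, which are active in limb mesenchyme, switches on the red protein tdTomato for good in a cell and its descendants. The source of the cells and the state of the joint therefore differ together between the groups and cannot be told apart.

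A cell copies its genome once per cycle. In G1 the origin recognition complex, CDC6 and CDT1 load the MCM2-7 helicase onto DNA, which licenses the origin, and geminin later blocks CDT1 so that no origin is licensed again. In S phase the kinase CDC7 with DBF4, and CDC45 and the GINS complex, turn the loaded helicase on, polymerase alpha with primase starts each strand, and polymerases delta and epsilon extend it with the PCNA clamp. Many of these genes are known targets of the E2F transcription factors. Mature articular chondrocytes rarely divide.

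The 6 libraries held 22060628 to 24881796 expected counts, and 3 counts, taken as the floor of detection, are 0.121 to 0.136 CPM (counts scaled to a library total of 1000000). Endogenous replicate 1 stood apart from the other two, with 3459 genes at 0 against 1338 and 1395 in replicates 2 and 3. The paper calls the cells of both groups articular chondrocytes. However, the summed TPM of 8 chondrocyte markers was 430 to 443 in the MSC-derived and 22076 to 23667 in the endogenous libraries, and all 8 were called lower. In the same order, the sum of 6 neutrophil markers was 128017 to 137114 against 6624 to 9637, of 7 macrophage markers 13656 to 13986 against 44.6 to 64.1, and of 5 pan-leukocyte markers 2606 to 2638 against 152 to 180. The 5 markers of early granulocyte precursors, such as *Elane* and *Mpo*, summed to 2229 to 2379 against 418 to 479 TPM. The 6 of 7 erythroid markers that the table holds summed to 23435 to 24706 against 5634 to 7684 TPM. Most of that sum was the globin gene *Hba-a1*, at 22964 to 24232 against 5456 to 7518 TPM. All members of these 5 blood lists that were tested were called higher. Of the other lists, 5 of 5 osteoblast and 6 of 6 fibroblast markers were called lower, 5 of 6 B cell precursor and 4 of 5 T and NK cell markers higher, and of 4 blood stem and progenitor markers 1 higher and 2 lower. The name MSC-derived follows the paper's account of the cells and does not state which cell types gave the RNA. The part of these other cell types in the results on replication genes was not tested. In bulk RNA, fewer cells of a type and less RNA per cell cannot be told apart.

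As a group the replication genes were higher in the MSC-derived libraries. By edgeR's quasi-likelihood test with Benjamini-Hochberg adjustment and a threshold of 0.05, 39 of the 48 genes were called higher, 0 lower, and 9 did not pass. Over all genes tested, 31.3% were called higher and 30.3% lower, so the members' share of 81.25% lay well above this background. The DESeq2 alternative also called 39 higher and 0 lower. Log2 fold changes are given as MSC-derived minus endogenous, and their median over the members was 1.12, against 0.05 over all genes tested. A rise of at least 2-fold was called for 26 members, or 54.2% of them, against 19.3% of all genes tested. Together the 48 genes took 0.168% ± 0.000751 (SD, n = 3) of all counts in the MSC-derived libraries and 0.0769% ± 0.00442 (SD, n = 3) in the endogenous libraries.

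**Figure D1:**
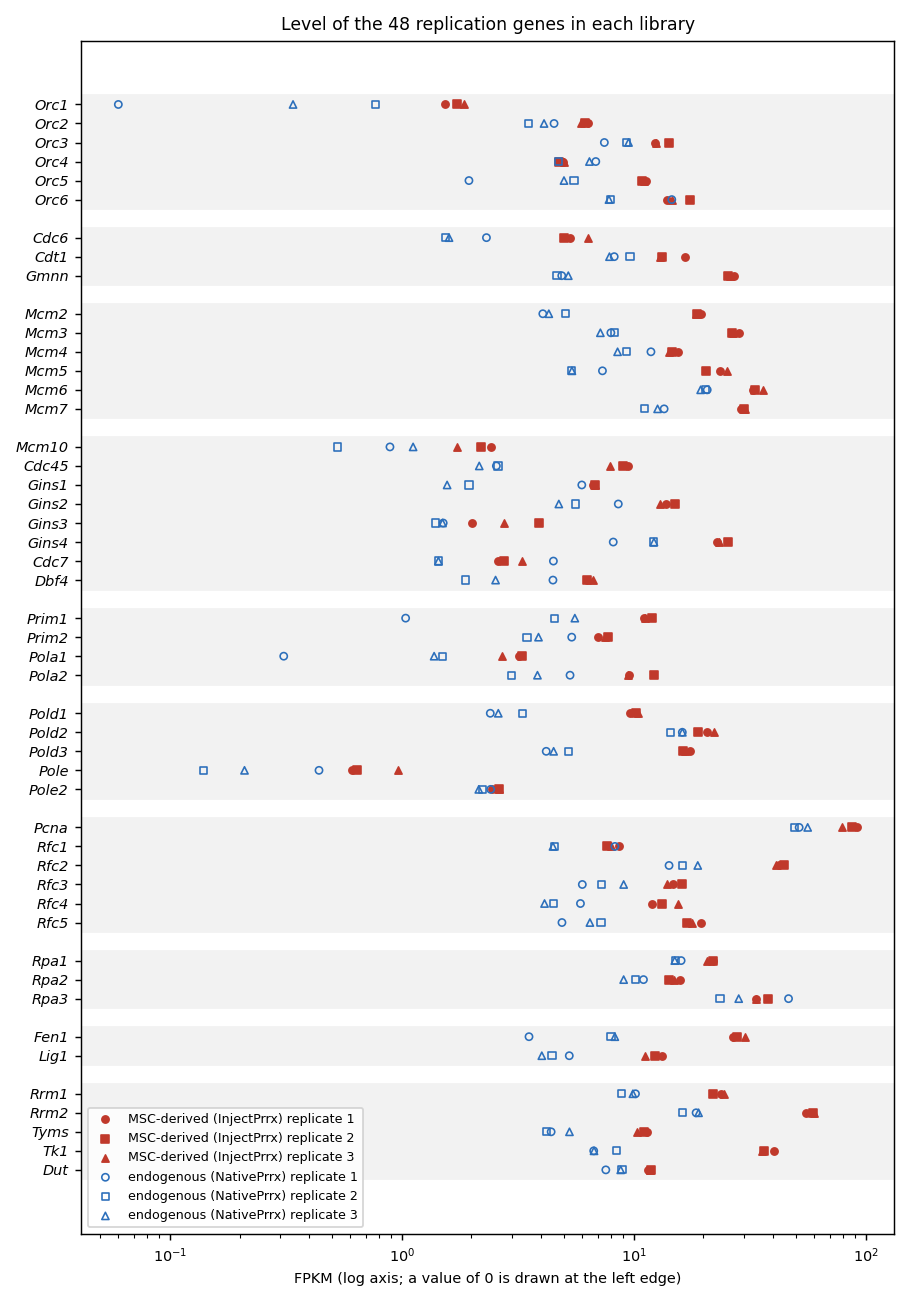
FPKM of each of the 48 genes (log axis) in the 3 MSC-derived libraries (filled red) and the 3 endogenous libraries (open blue), grouped by complex, with a value of 0 drawn at the left edge. In 43 of the 48 genes the 3 red points lie to the right of the 3 blue points.

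Levels are given in FPKM, which allows for the length of a transcript. The median member stood at 12.9 to 13.7 FPKM in the MSC-derived libraries and at 5.31 to 5.94 FPKM in the endogenous libraries, while the median of all genes tested was 6.45 to 6.52 and 5.83 to 5.92 FPKM. *Pcna*, the sliding clamp, had the highest level of the 48 in every library. The lowest was *Pole*, the catalytic subunit of polymerase epsilon, except in endogenous replicate 1, where *Orc1* was at 0. In 43 members (89.6%) all 3 MSC-derived libraries lay above all 3 endogenous ones, as did 42.5% of all genes tested.

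The count of calls depended on the scale. FPKM summed to 808701 to 813572 in the MSC-derived libraries and only to 504768 to 573603 in the endogenous ones. TPM is fixed to the same sum in every library. It therefore places all genes lower in the MSC-derived relative to the endogenous libraries than FPKM does. On log2(TPM + 1), tested with limma, 23 members were called higher and 1, *Orc4*, lower, against 21.9% and 41.7% of all genes tested. The split of all calls moved from 50.8% higher under edgeR to 34.4% higher on the TPM scale. In TPM, 26 members (54.2%) had all MSC-derived libraries above all endogenous ones, against 25.2% of all genes tested. The median over all genes tested was -0.28 on this scale, and the members' median of 0.60 lay 0.88 above it, where under edgeR it lay 1.07 above. The shift of the members relative to all genes was thus closer between the scales than the count of calls.

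**Figure D2:**
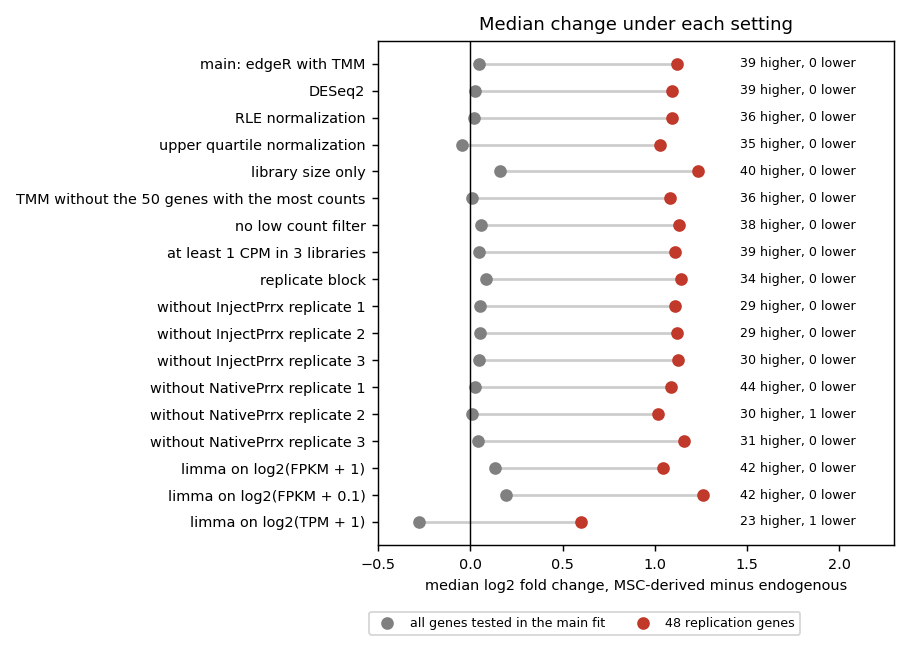
Median log2 fold change (MSC-derived minus endogenous) of the 48 genes (red) and of all genes tested (grey) under each of 18 settings, with the calls among the 48 genes at the right. The members' median lies 0.88 to 1.12 above that of all genes throughout, while the number called higher runs from 23 to 44.

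The origin recognition complex showed the weakest shift of the licensing groups. Of its 6 subunits 3 were called higher, *Orc2*, *Orc3* and *Orc5*, with a median log2 fold change of 0.50 over all 6. *Orc1*, the subunit whose supply varies with the cell cycle, had the lowest level of the complex in every library. It stood at 1.54, 1.74 and 1.86 FPKM in the MSC-derived libraries and at 0, 0.77 and 0.34 FPKM in the endogenous libraries. The groups did not overlap, but the endogenous libraries rested on 0, 52 and 24 counts, and the log2 fold change of 2.08 (standard error 1.04) did not pass (edgeR adjusted p = 0.122). *Orc6* was at 13.9, 17.4 and 14.7 FPKM in the MSC-derived libraries and at 14.6, 7.95 and 7.83 FPKM in the endogenous libraries. Endogenous replicate 1 lay among the MSC-derived values and the other two below them, and the change of 0.50 did not pass (edgeR adjusted p = 0.133). *Orc4* was the member with the most negative value, with 4.98, 4.77 and 4.99 FPKM against 6.87, 4.76 and 6.45 FPKM in the endogenous libraries. Its groups overlapped through endogenous replicate 2, and the change of -0.39 (standard error 0.20) did not pass (edgeR adjusted p = 0.123). *Orc3*, the highest subunit in endogenous replicates 2 and 3, was at 12.4, 14.2 and 12.4 FPKM against 7.48, 9.33 and 9.51 FPKM (log2 fold change 0.39, edgeR adjusted p = 0.0124). *Orc5* had 11.3, 10.9 and 11.1 FPKM against 1.95, 5.53 and 5.01 FPKM, the subunit in which endogenous replicate 1 lay furthest below replicates 2 and 3 apart from *Orc1*.

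The proteins that load the helicase, and the inhibitor of loading, were all called higher. *Cdc6*, the ATPase that joins ORC at origins, was the lowest of the 3 in every library, with 5.31, 5.02 and 6.36 FPKM in the MSC-derived and 2.32, 1.55 and 1.60 FPKM in the endogenous libraries. All 3 MSC-derived values were more than the highest endogenous value, and the log2 fold change was 1.49 (standard error 0.20, edgeR adjusted p = 0.000501). *Cdt1*, which brings the helicase to the origin, was at 16.7, 13.2 and 12.9 FPKM against 8.25, 9.64 and 7.87 FPKM, a smaller change of 0.61 (standard error 0.16, edgeR adjusted p = 0.0107) that was no longer called on the TPM scale. *Gmnn*, which encodes geminin, was at 27.1, 25.5 and 26.1 FPKM against 4.90, 4.67 and 5.23 FPKM. Its expected counts were 581, 532 and 488 against 240, 146 and 152, and the test on counts gave a log2 fold change of 1.49 (standard error 0.23, edgeR adjusted p = 0.000867). The FPKM of *Gmnn* thus differed 5.33-fold while its CPM differed 3.05-fold. The transcript length that its FPKM implies was 0.570 times as large in the MSC-derived as in the endogenous libraries, where the median of this ratio over the members was 0.998 and *Gmnn* was the only one of the 48 under 0.8. RSEM averages the length of a gene over its estimated isoforms. On that scale limma on log2(FPKM + 0.1) put its change at 2.39.

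A ratio of 2 genes within a library needs no scaling between libraries. The TPM of *Gmnn* relative to *Cdt1* was 1.62, 1.93 and 2.02 in the MSC-derived libraries and 0.594, 0.484 and 0.664 in the endogenous libraries. In TPM, geminin transcripts were thus above those of its target in every MSC-derived library and below in every endogenous one, with no overlap. The exact permutation test (two-sided) gave p = 0.10, the smallest that 3 against 3 libraries allow, and an adjusted p of 0.10 over the 3 ratios tested. The shift in implied length of *Gmnn* enters this ratio in full, so the side of 1 on which a library falls depends on the length used. In expected counts, which are not divided by length, *Gmnn* stood below *Cdt1* in every library. The ratio of *Orc1* to *Orc2* was 0.242, 0.281 and 0.313 against 0, 0.220 and 0.0824, and was not tested because a library was at 0.

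All 6 subunits of the MCM2-7 helicase, the ring that unwinds DNA at the fork, were called higher, with a median log2 fold change of 1.40. *Mcm2* rose most, from 4.06, 5.08 and 4.31 FPKM in the endogenous libraries to 19.5, 18.9 and 18.6 FPKM in the MSC-derived libraries. The groups lay far apart relative to their spread, and the log2 fold change was 1.96 (standard error 0.12, edgeR adjusted p = 6.6e-06). *Mcm3* (1.67), *Mcm5* (1.82) and *Mcm7* (1.12) were called with changes of at least 2-fold, *Mcm6* (0.63) and *Mcm4* (0.46) with smaller ones. *Mcm6*, the highest subunit in every library, was at 32.6, 33.4 and 36.2 FPKM against 20.8, 20.4 and 19.5 FPKM. *Mcm4*, the lowest subunit in the MSC-derived libraries, was at 15.6, 14.7 and 14.2 FPKM against 11.9, 9.33 and 8.53 FPKM, and its call (edgeR adjusted p = 0.0221) was lost when any library but endogenous replicate 1 was left out. On the TPM scale neither *Mcm4* nor *Mcm6* was called.

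The subunits form a ring with 1 copy of each, and their transcripts were more even in the MSC-derived libraries. The highest subunit exceeded the lowest 2.1- to 2.56-fold in the MSC-derived libraries and 4.02- to 5.12-fold in the endogenous libraries, without overlap. *Mcm2* made up 12.8% of the summed FPKM of the 6 genes in the MSC-derived and 7.40% in the endogenous group, as means of 3 libraries. *Mcm5* likewise took 15.6% against 9.88%, and *Mcm3* 18.4% against 12.9%. The shares of *Mcm6*, 23.0% against 33.2%, and *Mcm4*, 9.99% against 16.2%, moved the other way, and that of *Mcm7* was 20.1% against 20.5%. These shares are within a library and do not depend on the scale, and they were not tested. The fold between the highest and lowest gene differed in direction among the other groups. For polymerases delta and epsilon it was also smaller in the MSC-derived libraries (23.25 to 34.0 against 36.9 to 102.6). For deoxynucleotide supply it was larger there (4.86 to 5.76 against 3.60 to 4.22).

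**Figure D3:**
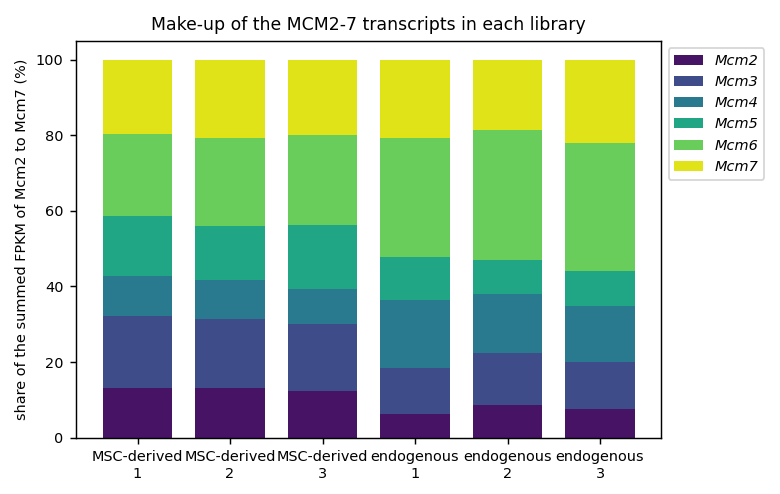
Share of each subunit gene in the summed FPKM of *Mcm2* to *Mcm7* (percent, vertical axis) in each of the 6 libraries. *Mcm6* and *Mcm4* take larger shares, and *Mcm2*, *Mcm3* and *Mcm5* smaller shares, in the 3 endogenous libraries.

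Many replication genes are E2F targets, and 160 bases before the RefSeq start are shown for 4 licensing genes to set those with and without an E2F type motif side by side. Sequences are from RefSeq promoter windows (GRCm38.p6), on the strand of the gene, 5′ to 3′, with capitals marking TTTCCCGC, TTTGGCGC, TTTCGCGC or TTTGCCGC on either strand. *Mcm5* lies on the plus strand and the stretch is chr8:75109349-75109508. *Mcm6* lies on the minus strand (chr1:128359706-128359865), *Cdc6* on the plus strand (chr11:98907991-98908150) and *Mcm2* on the minus strand (chr6:88898781-88898940).
Mcm5: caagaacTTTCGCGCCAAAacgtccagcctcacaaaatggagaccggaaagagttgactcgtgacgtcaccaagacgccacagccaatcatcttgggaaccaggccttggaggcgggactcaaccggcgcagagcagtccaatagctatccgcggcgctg
Mcm6: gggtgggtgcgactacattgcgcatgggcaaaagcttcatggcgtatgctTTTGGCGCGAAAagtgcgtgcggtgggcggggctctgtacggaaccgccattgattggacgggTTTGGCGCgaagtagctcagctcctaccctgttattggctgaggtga
Cdc6: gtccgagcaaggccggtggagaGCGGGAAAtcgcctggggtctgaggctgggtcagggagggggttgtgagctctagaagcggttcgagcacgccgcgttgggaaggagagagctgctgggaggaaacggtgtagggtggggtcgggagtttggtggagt
Mcm2: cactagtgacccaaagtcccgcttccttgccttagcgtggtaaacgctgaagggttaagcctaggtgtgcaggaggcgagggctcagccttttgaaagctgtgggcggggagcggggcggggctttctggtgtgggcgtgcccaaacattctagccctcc
The capitals in *Mcm5* hold 2 overlapping motifs, TTTCGCGC from base -153 and TTTGGCGC on the other strand from base -149, counted from the RefSeq start. *Mcm6* holds the same pair in reverse order from base -110 and a further TTTGGCGC from base -47. *Cdc6* holds TTTCCCGC on the other strand from base -138. In *Mcm2*, the subunit gene that rose most, none of these letters occurs in the window.

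RefSeq windows of 300 bases, from 250 before to 50 after the start, were matched for 40 of the 48 members, with 49 windows. An E2F type motif occurred in 15 of the 49 (30.6%), compared with 2.26% of all 32851 windows and 3.64% of the windows of genes tested. By gene this was 15 of 40 members (37.5%), compared with 4.41% of the genes tested. Motifs were found for 4 MCM2-7 subunits (*Mcm3*, *Mcm5*, *Mcm6* and *Mcm7*), for 3 genes of polymerases delta and epsilon (*Pold1*, *Pold3* and *Pole2*), and for *Orc1*, *Orc3*, *Cdc6*, *Cdt1*, *Gins3*, *Pola1*, *Rfc3* and *Lig1*. They occurred in 13 of the 32 matched genes that were called higher (40.6%) and in 2 of the 8 that did not pass (25%), namely *Orc1* and *Pole2*. CCAAT, the core of the NF-Y site, occurred in 51.0% of member windows, 37.4% of all windows and 37.6% of the windows of genes tested. TTTGAA, the core of the CHR element, occurred in 16.3%, 17.9% and 12.5%, so that the members lay between both backgrounds. The motifs were searched on both strands, and a match is a description of the letters, not of binding.

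Of the 8 genes that turn the loaded helicase on, 6 were called higher, with a median log2 fold change of 1.00 over all 8. *Gins4*, a GINS subunit and the highest of the group in all libraries but 1, was at 22.9, 25.4 and 23.2 FPKM against 8.17, 12.2 and 12.2 FPKM (log2 fold change 1.01, edgeR adjusted p = 0.00222). *Mcm10*, a fork factor and the lowest in 5 of 6 libraries, was at 2.42, 2.2 and 1.74 FPKM against 0.89, 0.53 and 1.12 FPKM (1.23, edgeR adjusted p = 0.0161). Neither gene had overlapping groups. *Cdc45* (1.48), *Gins2* (1.01), *Dbf4* (1.00) and *Gins3* (0.86) were also called. *Gins2* was the highest gene of the group in endogenous replicate 1, and was at 13.8, 15.0 and 13.0 FPKM against 8.59, 5.60 and 4.76 FPKM. *Gins3*, the lowest in MSC-derived replicate 1, was at 2.01, 3.90 and 2.75 FPKM against 1.51, 1.4 and 1.5 FPKM, and lay close to the threshold (edgeR adjusted p = 0.0465), and its call was lost in 4 of the 6 fits that leave out a library.

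*Gins1* and *Cdc7* did not pass, and in both endogenous replicate 1 lay apart. *Gins1* was at 6.71, 6.85 and 6.81 FPKM in the MSC-derived libraries and at 5.98, 1.95 and 1.57 FPKM in the endogenous ones, so that the groups did not overlap but the endogenous ones spread widely (0.99, standard error 0.53, edgeR adjusted p = 0.144). *Cdc7*, the kinase that starts firing together with DBF4, was at 2.60, 2.76 and 3.29 FPKM against 4.51, 1.44 and 1.44 FPKM. Endogenous replicate 1 lay above all MSC-derived libraries and replicates 2 and 3 below them, and the change of 0.12 (standard error 0.46) did not pass (edgeR adjusted p = 0.837). Without endogenous replicate 1 both were called higher. With it in the fit and endogenous replicate 2 or 3 left out, the value for *Cdc7* was negative. In *Dbf4*, with 6.28, 6.31 and 6.68 FPKM against 4.49, 1.88 and 2.54 FPKM, endogenous replicate 1 was again the highest of its group, but all endogenous values lay below the MSC-derived ones. It was called (edgeR adjusted p = 0.0265), and the call was lost without any of the 5 libraries other than endogenous replicate 1.

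The 4 genes of primase and polymerase alpha, which lay down the primer, were all called higher, with a median of 1.32. *Prim1*, the catalytic primase subunit, was at 11.1, 12.03 and 11.2 FPKM against 1.04, 4.56 and 5.58 FPKM (log2 fold change 1.5, standard error 0.52, edgeR adjusted p = 0.0386). *Pola1*, the catalytic polymerase subunit and the lowest of the 4 in every library, was at 3.19, 3.3 and 2.71 FPKM against 0.31, 1.5 and 1.38 FPKM (1.41, edgeR adjusted p = 0.0459). In both, all MSC-derived libraries lay above all endogenous ones and endogenous replicate 1 lay far below the other two. *Pola2* was at 9.53, 12.3 and 9.48 FPKM against 5.32, 2.97 and 3.85 FPKM (1.24), and *Prim2* at 7.04, 7.74 and 7.56 FPKM against 5.41, 3.47 and 3.89 FPKM (0.69), and here endogenous replicate 1 was the highest of its group. The calls of *Prim2* and *Pola1* needed all 5 libraries beside endogenous replicate 1, and were lost without any of these, and that of *Prim1* was lost in 4 of the 6 fits that leave out a library.

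Among the extending polymerases, *Pold1*, *Pold3* and *Pole* were called higher and *Pold2* and *Pole2* did not pass. *Pold1*, the catalytic subunit of polymerase delta, averaged 10.1 ± 0.394 FPKM (SD, n = 3) against 2.78 ± 0.484 FPKM (SD, n = 3), and its log2 fold change was 1.45 (edgeR adjusted p = 9.52e-05). The FPKM of *Pold1* differed 3.63-fold and its CPM 2.96-fold, with an implied length 0.813 times as large in the MSC-derived libraries. Its accessory subunit *Pold3* changed by 1.74 (edgeR adjusted p = 1.62e-05). *Pold2*, the subunit with the highest level of the group in every library, was at 20.7, 18.9 and 22.3 FPKM against 16.2, 14.4 and 16.2 FPKM. Its groups did not overlap in FPKM, but its change of 0.28 did not pass (edgeR adjusted p = 0.0797). *Pole* had few reads, with 0.61, 0.64 and 0.96 FPKM against 0.44, 0.14 and 0.21 FPKM, from 104 to 147 counts against 23 to 71 counts (1.38, edgeR adjusted p = 0.0398), and its call was lost in 5 of the 6 fits that leave out a library. *Pole2* was at 2.46, 2.64 and 2.63 FPKM against 2.42, 2.23 and 2.15 FPKM. Its change of 0.09 did not pass (edgeR adjusted p = 0.799), and on the TPM scale its 3 MSC-derived libraries lay below all endogenous ones.

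*Pcna* was called with a modest change. It stood at 92.3, 87.8 and 78.9 FPKM in the MSC-derived and at 51.8, 49.4 and 56.3 FPKM in the endogenous libraries (log2 fold change 0.60, standard error 0.09, edgeR adjusted p = 0.00111). The groups lay clearly apart in FPKM but overlapped in TPM, where *Pcna* was not called. Of the 5 subunits of replication factor C, which opens and loads the clamp, *Rfc2* (1.26), *Rfc3* (0.84), *Rfc4* (1.37) and *Rfc5* (1.42) were called higher. The large subunit *Rfc1*, which was the lowest of the group in the MSC-derived libraries, was at 8.63, 7.68 and 8.02 FPKM against 8.31, 4.55 and 4.49 FPKM. Endogenous replicate 1 lay within the MSC-derived range, and the change of 0.35 did not pass (edgeR adjusted p = 0.229). *Rfc4*, the lowest in endogenous replicates 2 and 3, was at 12.04, 13.2 and 15.6 FPKM against 5.90, 4.53 and 4.13 FPKM, and *Rfc5*, the lowest in replicate 1, at 19.5, 17.0 and 17.8 FPKM against 4.91, 7.24 and 6.48 FPKM. The 4 small subunits thus passed the test and the large one did not, and the difference between them was not tested.

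RPA, the trimer that coats single-stranded DNA, had the smallest median change of all groups, 0.36. *Rpa1* (0.36, edgeR adjusted p = 0.00714) and *Rpa2* (0.45, edgeR adjusted p = 0.0212) were called higher, neither on the TPM scale. *Rpa2*, the lowest subunit in every library, was at 15.9, 14.2 and 14.9 FPKM against 11.03, 10.2 and 9.06 FPKM. *Rpa3*, the highest, was at 33.7, 38.1 and 33.9 FPKM against 46.6, 23.6 and 28.4 FPKM. Endogenous replicate 1 lay above all MSC-derived libraries and the other two below the lowest of them, and the change of -0.03 (standard error 0.26) did not pass (edgeR adjusted p = 0.924).

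Both genes of Okazaki fragment maturation rose. *Fen1*, the flap nuclease, was at 26.9, 27.9 and 30.2 FPKM against 3.54, 7.99 and 8.30 FPKM (log2 fold change 1.95, standard error 0.30, edgeR adjusted p = 0.001). *Lig1*, which seals the nicks, was at 13.2, 12.4 and 11.2 FPKM against 5.28, 4.45 and 4.02 FPKM (1.3, standard error 0.15, edgeR adjusted p = 0.000169). The groups overlapped in neither gene, on the FPKM or the TPM scale.

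All 5 genes of deoxynucleotide supply were called higher, with a median of 1.16. *Tk1*, the cytosolic thymidine kinase of the salvage pathway, had the largest change of the 48 genes. It stood at 40.5, 36.6 and 35.6 FPKM in the MSC-derived and at 6.73, 8.41 and 6.75 FPKM in the endogenous libraries, a log2 fold change of 2.25 (standard error 0.15, edgeR adjusted p = 8.06e-06). *Rrm2*, the small subunit of ribonucleotide reductase that limits its activity in S phase, was the highest of the 5 in every library, with 55.6, 59.4 and 59.7 FPKM against 18.6, 16.2 and 19.1 FPKM (1.58, edgeR adjusted p = 4.92e-06). The large subunit *Rrm1* changed by 1.16 (edgeR adjusted p = 2.82e-05). *Tyms*, thymidylate synthase and the lowest of the 5, was at 11.4, 11.1 and 10.4 FPKM against 4.41, 4.20 and 5.29 FPKM (1.12, edgeR adjusted p = 0.000108). *Dut*, which hydrolyses dUTP, was at 11.6, 11.9 and 11.7 FPKM against 7.59, 8.91 and 8.80 FPKM. Its change of 0.37 was called (edgeR adjusted p = 0.0374), but in TPM its MSC-derived libraries lay below the endogenous ones, with a value of -0.08, and the call was lost whenever any one library was left out.

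The replicative enzymes were also set against relatives that serve cells outside S phase. The TPM ratio of *Rrm2* to *Rrm2b*, the small subunit used for DNA repair and mitochondrial DNA, was 11.5, 16.9 and 14.8 in the MSC-derived libraries and 1.85, 4.24 and 5.41 in the endogenous libraries. The groups did not overlap, and the difference of mean log2 ratios was 2.02 (two-sided exact permutation test p = 0.10, the smallest possible, adjusted p = 0.10). For *Tk1* relative to *Tk2*, the mitochondrial thymidine kinase, the ratio was 0.909, 0.839 and 0.821 against 1.06, 1.31 and 0.920, a log2 difference of -0.34 (two-sided exact permutation test p = 0.10, adjusted p = 0.10). The direction here was the opposite, and *Tk2* itself changed by 2.61 (edgeR adjusted p = 4.92e-07), more than *Tk1*.

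**Figure D4:**
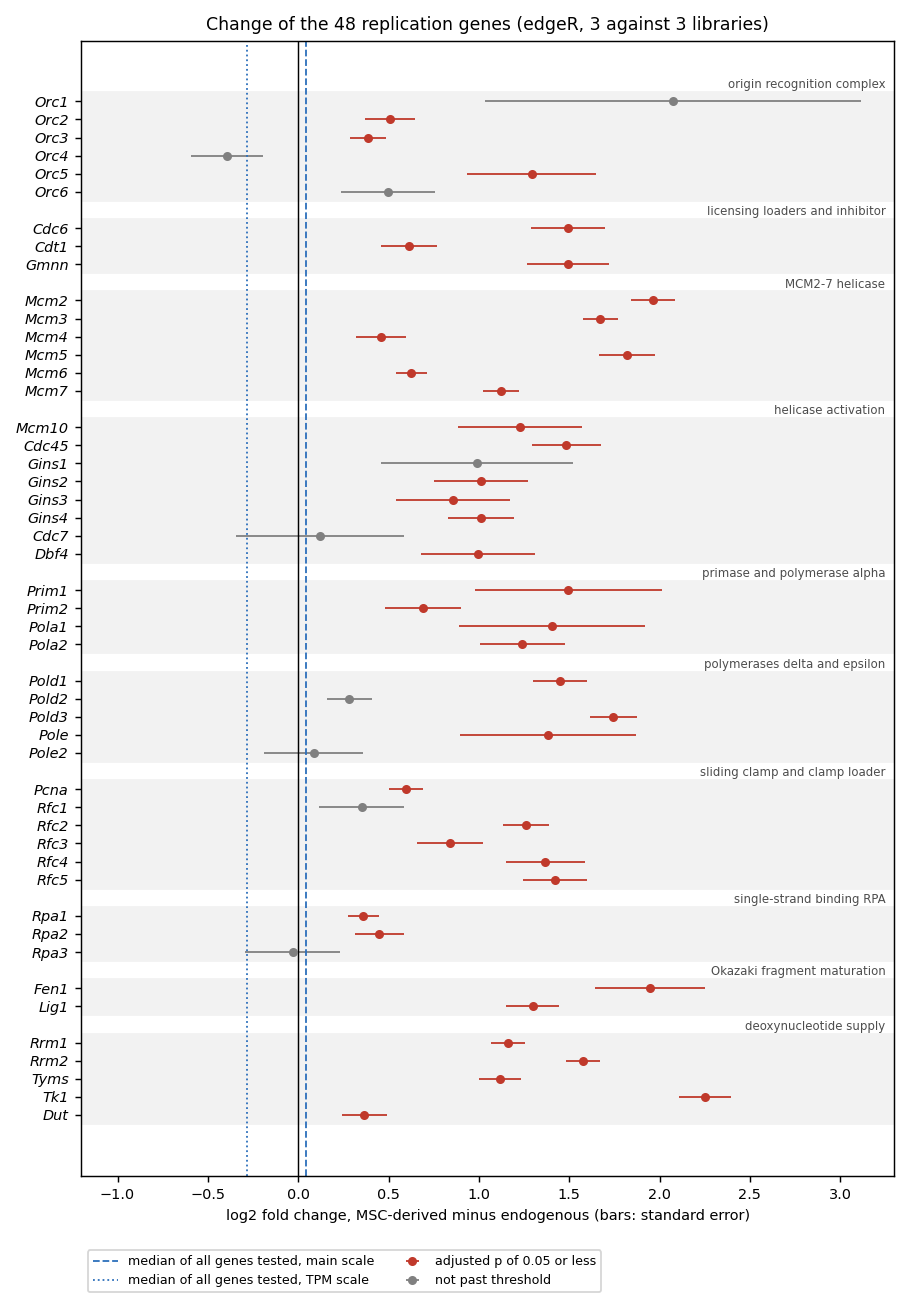
Log2 fold change of each of the 48 genes (MSC-derived minus endogenous, edgeR, bars 1 standard error), red where the adjusted p was 0.05 or less and grey where it was not, with the medians of all genes tested on the main scale (dashed, 0.05) and the TPM scale (dotted, -0.28). The values run from -0.39 for *Orc4* to 2.25 for *Tk1*, and 39 are red.

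The spread behind these values came mainly from the endogenous group. Over the members the median coefficient of variation of FPKM was 5.89% in the MSC-derived and 17.5% in the endogenous libraries, and 8.90% between endogenous replicates 2 and 3. The same values over all genes tested were 7.75%, 19.9% and 6.82%. Endogenous replicate 1 was the highest of its group for 24 members and the lowest for 15, above 1.5 times the mean of the other two in 9 and below 0.667 times in 5. Over all 14289 genes tested it was the highest for 6110 and the lowest for 6699, above 1.5 times in 2346 and below 0.667 times in 3328. The members took 0.0820% of the counts in endogenous replicate 1, and 0.0736% and 0.0752% in replicates 2 and 3. Endogenous replicate 1 thus lay on both sides of the others, and more often above them in the members than over all genes tested. Without it, 44 of the 48 members were called higher by edgeR, against 37.8% of all genes tested. *Orc1*, *Orc6*, *Gins1*, *Cdc7*, *Pold2* and *Rfc1* were then called, and *Dut* was no longer called. Leaving out any other library left 29 to 31 calls, and these fits called 3672 to 4175 of the 14490 to 14748 genes tested higher. Beside the calls already named as lost there, that of *Rpa2* was lost in 3 of these fits, those of *Orc2* and *Mcm10* in 2 and that of *Orc3* in 1. Of the 48 members, 27 were called higher in the fit given here and under every alternative at the 0.05 threshold other than the TPM scale, and 22 when that scale was included. The share of all genes tested that kept a call in this way is not given here.

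Some counts could include reads of another gene. By the GENCODE M21 annotation (GRCm38) *Tk1* shares 83 exonic bases with *Afmid* and *Rfc2* shares 952 with *Lat2*, both on the opposite strand. Whether reads were counted by strand is not given in the sources used here. *Afmid* and *Lat2* were picked after their values were seen, from several neighbours that changed in the same direction as the member. *Afmid* had a mean of 575.5 counts in the MSC-derived and 92.9 in the endogenous libraries, and *Lat2* 332.7 and 48.3 counts. Their part in the changes of *Tk1* and *Rfc2* was not tested. *Orc1*, *Orc2*, *Orc4*, *Orc6*, *Mcm7*, *Cdc45*, *Gins2*, *Pole*, *Rfc4*, *Rfc5*, *Fen1* and *Lig1* also overlap a gene of the other strand. The largest overlap was that of *Gins2* with *Gse1*, over 2758 bases (*Gse1* mean counts 956.7 against 752.2). Next came that of *Fen1* with *Gm10143*, over 1909 bases, and *Gm10143* has no counts here. *Pole2* overlaps a gene of the same strand over 177 bases. Some of these neighbours also had more mean counts in the MSC-derived libraries, such as *Vps35* beside *Orc6* (4044.7 against 2137.3) and *Tmem258* beside *Fen1* (2340.3 against 1557). Others had fewer, such as *Eif4a2* beside *Rfc4* (3840.5 against 6174.5). *Pcna* and *Tyms* have pseudogene copies in the mouse genome, and how reads shared with them were assigned is not given in the sources used here.

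Of 74 further genes of the replication pathway, 40 were called higher, 8 lower and 26 did not pass. The background for these and the groups below is all genes tested, of which 31.3% were called higher and 30.3% lower. Their median log2 fold change was 0.86. All 7 S phase cyclins, kinases and division markers were called higher, among them *Ccna2* (1.61), the cyclin of S phase, *Cdk1* (1.73), *Mki67* (1.61), a marker of cycling cells, and *Top2a* (1.44). *Mki67* averaged 15.2 ± 0.495 FPKM (SD, n = 3) against 4.58 ± 1.07 FPKM (SD, n = 3) (edgeR adjusted p = 7.51e-05).

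The E2F family and its partners did not move as one. Of 13 genes 7 were called higher and 1 lower. *E2f1* (2.14) and *E2f2* (1.98), activators of S phase genes, were called higher, as were *E2f8* (1.82), a repressor, *E2f4* (1.15), *Tfdp1* (0.67), and the pocket proteins *Rb1* (1.64) and *Rbl1* (1.19), which hold E2F in check. *E2f2* stood at 18.8 ± 0.461 FPKM (SD, n = 3) against 4.42 ± 0.286 FPKM (SD, n = 3). *E2f5* was called lower (-1.33, edgeR adjusted p = 0.000318), and *E2f3* (0.27), *E2f6* (0.13), *E2f7* (0.92), *Tfdp2* (0.44) and *Rbl2* (-0.19) did not pass.

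Of 12 other factors of origin firing and the fork, 6 were called higher and 0 lower. *Ticrr* (1.73), which brings CDC45 to origins, and *Clspn* (1.15), a fork and checkpoint mediator, were among the 6. *Topbp1* (0.76), *Recql4* (2.14), *Mcm8* (1.47), *Timeless* (0.25), *Mtbp* (-0.21) and *Mcm9* (-0.07) did not pass. Of 11 other polymerase, clamp loader and nuclease genes 6 were called higher and 0 lower, including *Dna2* (2.69), a nuclease of long flaps, and the 3 subunits of RNase H2, *Rnaseh2a* (0.88), *Rnaseh2b* (1.93) and *Rnaseh2c* (1.3). The accessory polymerase epsilon subunits *Pole3* (-0.34) and *Pole4* (-0.15) did not pass.

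Of 8 genes of chromatin assembly behind the fork, 5 were called higher and 1 lower. *Asf1b* (2.43), the histone chaperone of dividing cells, was called while *Asf1a* (-0.05), its more general paralogue, did not pass. *Chaf1a* (1.34), *Chaf1b* (1.47), *Uhrf1* (1.78) and *Dnmt1* (1.17), which restore histones and DNA methylation, were called higher, and *Nasp* (-0.65), a histone carrier, was called lower.

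Of 23 genes of nucleotide supply outside the 5 members, 9 were called higher, 6 lower and 8 did not pass, shares near those of all genes tested (31.3% higher and 30.3% lower). Those called higher included genes of salvage, *Tk2* (2.61), *Dck* (2.59) and *Dguok* (1.52), and *Samhd1* (0.96), which breaks deoxynucleotides down. *Dck*, deoxycytidine kinase, stood at 25.1 ± 0.597 FPKM (SD, n = 3) against 3.83 ± 0.448 FPKM (SD, n = 3). They also included *Umps* (0.93) and *Dhodh* (0.77) of pyrimidine synthesis, *Gart* (0.55) of purine synthesis, *Shmt1* (3.23) of one-carbon supply, and *Dtymk* (0.45). The 6 called lower were *Ctps* (-0.80) and *Cad* (-0.68) of pyrimidine synthesis, *Paics* (-0.69) and *Impdh2* (-0.64) of purine synthesis, *Shmt2* (-0.53) of one-carbon supply, and *Nme2* (-0.37), a nucleoside diphosphate kinase. Synthesis and one-carbon genes thus stood on both sides. *Paics*, a purine synthesis enzyme, stood at 47.3 ± 0.225 FPKM (SD, n = 3) against 70.8 ± 6.58 FPKM (SD, n = 3), with an edgeR adjusted p of 0.000246.

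**Figure D5:**
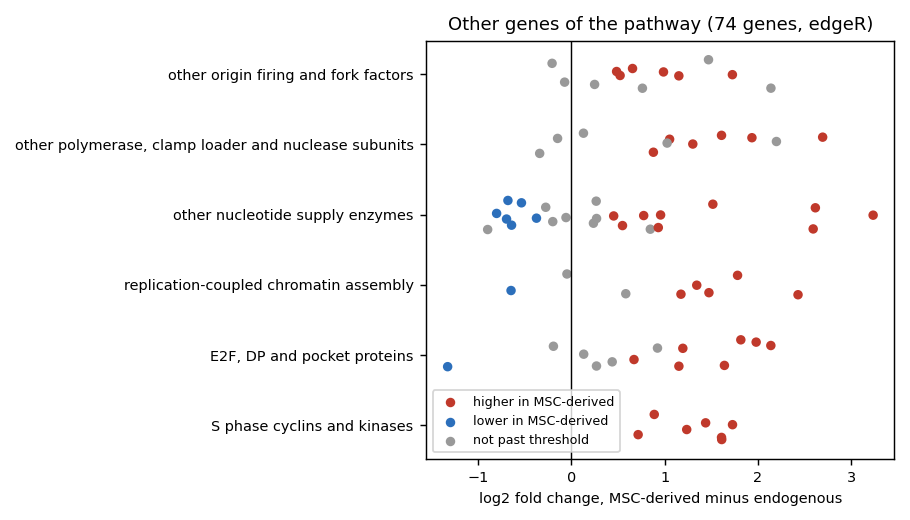
Log2 fold change (MSC-derived minus endogenous, edgeR) of 74 further genes of the replication pathway, 1 point a gene, in 6 groups, red where called higher, blue where called lower and grey where neither. All 7 points of the S phase cyclins and kinases are red, while the nucleotide enzymes hold 9 red and 6 blue points.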

How the data were processed

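Bulk RNA was sequenced by the authors from 3 MSC-derived and 3 endogenous libraries. Reads were filtered with SOAPnuke, aligned with HISAT2 and Bowtie2, and quantified with RSEM; the processing notes name mm9, Bowtie2 2.2.5 and RSEM 1.2.12, while other versions stand in the methods. The authors deposited expected counts per gene, without normalization, and FPKM and TPM, both divided by transcript length. Another 6 columns of single samples and the group averages were not used.

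Expected counts were rounded, which changed 20.6% of values, and tested with edgeR 4.0.16 (R 4.3.3; TMM, filterByExpr, quasi-likelihood test, no block), with Benjamini-Hochberg adjustment over 14289 genes and a threshold of 0.05. Before use the test recovered known changes in simulated counts, in which few genes were changed and as many rose as fell. In the real data 31.3% of genes tested were called higher and 30.3% lower. The simulation therefore does not show how the test performs in that setting. Alternatives were DESeq2 1.42.0, 3 other normalizations, TMM computed without the 50 most counted genes, a looser and a stricter filter, a replicate block, each library left out, limma 3.58.1 on log2(FPKM + 1), log2(FPKM + 0.1) and log2(TPM + 1), and a threshold of 0.001. Fold changes on such a scale understate low genes. The standard errors given with edgeR values were derived from its test, as the absolute log2 fold change divided by the square root of the F statistic. The floor covers counting error only, while the SDs and standard errors also hold the spread between libraries.

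Same-numbered samples of the groups came from different mice. The correlations of their deviations from the group means, 0.0129, 0.00221 and 0.0178, did not pair them. The members and lists were chosen with earlier results of these data known. Values in every library are given for the 3 largest changes in each direction, for the lowest and highest gene of each complex and for every gene that did not pass. Other members and genes of the fixed lists may be named with their values. Promoter windows and symbols came from RefSeq (GRCm38.p6), used for sequence only, since the files are on mm9. The p-values measure the spread between these libraries.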

Additional observations from a re-analysis of the deposited data

How the results depend on the processing

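Under edgeR with TMM 39 members were called higher. The count was 23 on log2(TPM + 1), with 1 called lower, and 17 at a threshold of 0.001, and it was 29 to 44 with 1 library left out, where 1 member was called lower without endogenous replicate 2 and 0 otherwise. The other settings gave 34 to 42. Over all genes tested, 3124 of 14289 were called higher on log2(TPM + 1) and 2134 of 14289 at 0.001. With 1 library left out it was 3672 to 5563 of 14490 to 14748, and under the other settings 4027 to 5464 of 13525 to 17840. The members' median log2 fold change of 1.12 was 1.10 with DESeq2, 1.09 with RLE, 1.03 with upper quartile, 1.24 with library size only, 1.08 without the top 50 genes, 1.04 on log2(FPKM + 1), 1.26 on log2(FPKM + 0.1) and 0.60 on log2(TPM + 1), and 1.02 to 1.16 with a library left out. Less the median of all genes it was 1.07, 0.91 on log2(FPKM + 1), 0.88 on log2(TPM + 1) and 1.01 to 1.12 with a library left out.

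With the replicate block, which pairs samples that share only a number, 34 members were called higher (*Gins3*, *Prim2*, *Pole*, *Rpa2* and *Dut* lost), 0 lower, and the median was 1.14. *Rpa3* was 0.028 with the block.

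Values of genes near 0 changed sign. On log2(TPM + 1) *Cdc7* was -0.13, *Pold2* -0.15, *Pole2* -0.30, *Rfc1* -0.019, *Rpa1* -0.078 and *Dut* -0.078. *Pole2* was -0.00096 with upper quartile. With a library left out *Cdc7* was -0.16 to 0.83, below 0 without endogenous replicate 2 or 3 (-0.15) and highest without replicate 1. *Rpa3* was 0.082 with library size only, 0.15 on log2(FPKM + 1), 0.16 on log2(FPKM + 0.1), and -0.25 to 0.26 with a library left out.

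The 74 pathway genes gave 40 higher and 8 lower, and 20 and 2 at a threshold of 0.001. At 0.001, 2134 of the 14289 genes tested were called higher and 2380 lower. The cause of these moves was not tested. Total counts were similar in the 6 libraries, but endogenous replicate 1 had 3459 genes at 0 against 1338 to 1948 in the others.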
